A study of Mus musculus with 4 samples.

Results

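Cytochrome P450 enzymes are haem proteins that insert oxygen into drugs, plant compounds, fatty acids, steroids, bile acids and vitamins. Most sit in the endoplasmic reticulum and receive electrons from the reductase Por, some with help from cytochrome b5. In the small intestine, enterocytes carry members of the CYP2, CYP3 and CYP4 families, which meet swallowed compounds before the liver does, and many of these genes are controlled by nuclear receptors that sense foreign compounds, bile acids and fatty acids. The P450 genes described here were found by the gene name listed for each probe, taking every name that starts with Cyp and a digit and leaving out Cyp1a1, Cyp1b1 and Cyp51. This gave 100 of 41174 non-control probes, for 69 of 27734 genes. The names left out accounted for 3 genes and 6 probes.

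RNA came from enterocytes freshly isolated from the small bowel of mice with constitutively active IKKb in intestinal epithelial cells, IKKb(EE)IEC, and of their wild-type (WT) littermates. IKKb is a kinase that switches on the transcription factor NF-kB. Each genotype had 2 biological replicates, each hybridised as Cy3-labelled cRNA to 1 one-colour Agilent array. The sources used here do not give the promoter that drives the transgene, the age and sex of the mice or the number of mice behind a sample. All 4 arrays lay on 1 slide, WT at positions 1 and 2 and IKKb(EE)IEC at positions 3 and 4, so position and genotype cannot be told apart.

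A probe was called measured where the scanner software flagged it as well above background on 2 or more of the 4 arrays. Of the 100 P450 probes, 47 met this, 43 of them on all 4 arrays, while 8 were well above background on 1 array and 45 on none. The 47 probes stood for 41 genes, and 28 P450 genes were not measured. Each P450 probe had 1 spot per array and none was saturated. Levels are given as log2 of the processed signal minus the array's 75th percentile, called normalized log2 level below, so that 0 is the 75th percentile of that array. Fold changes are differences on this log2 scale, IKKb(EE)IEC minus WT, ± the moderated standard error of limma, with n = 2 arrays per genotype and p-values adjusted (Benjamini-Hochberg) over all 12437 genes measured. Levels of different probes are not set against each other.

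The promoters of 4 P450 genes are shown because they belong to 2 pairs of neighbouring paralogs whose transcripts fell together. Each window runs from 250 bases before to 50 bases after the annotated start and is written 5′ to 3′ on the gene's strand, from RefSeq on GRCm38.p6. Capitals mark TATAAA, the TATA box motif, and AGGTCA, the half-site read by many nuclear receptors. The windows lie at chr19:39060756-39061055 (plus strand) for Cyp2c65, chr19:39113648-39113947 (plus) for Cyp2c66, chr5:145879805-145880104 (minus) for Cyp3a11 and chr5:145805825-145806124 (minus) for Cyp3a44.
Cyp2c65: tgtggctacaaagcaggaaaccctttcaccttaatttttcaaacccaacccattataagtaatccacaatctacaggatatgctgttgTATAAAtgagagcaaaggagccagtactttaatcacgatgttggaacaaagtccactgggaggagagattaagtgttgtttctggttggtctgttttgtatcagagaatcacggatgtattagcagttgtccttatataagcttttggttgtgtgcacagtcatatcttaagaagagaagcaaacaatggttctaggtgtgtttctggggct
Cyp2c66: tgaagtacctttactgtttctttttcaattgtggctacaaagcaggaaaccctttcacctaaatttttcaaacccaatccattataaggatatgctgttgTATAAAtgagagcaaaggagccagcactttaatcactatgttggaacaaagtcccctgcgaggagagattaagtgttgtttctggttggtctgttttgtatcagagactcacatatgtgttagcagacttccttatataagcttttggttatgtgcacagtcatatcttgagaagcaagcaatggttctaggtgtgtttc
Cyp3a11: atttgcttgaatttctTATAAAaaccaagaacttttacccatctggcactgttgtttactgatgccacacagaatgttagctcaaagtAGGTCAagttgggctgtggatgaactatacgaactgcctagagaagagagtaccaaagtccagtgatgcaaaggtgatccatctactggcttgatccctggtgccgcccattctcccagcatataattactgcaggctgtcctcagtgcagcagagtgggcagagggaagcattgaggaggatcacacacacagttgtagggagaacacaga
Cyp3a44: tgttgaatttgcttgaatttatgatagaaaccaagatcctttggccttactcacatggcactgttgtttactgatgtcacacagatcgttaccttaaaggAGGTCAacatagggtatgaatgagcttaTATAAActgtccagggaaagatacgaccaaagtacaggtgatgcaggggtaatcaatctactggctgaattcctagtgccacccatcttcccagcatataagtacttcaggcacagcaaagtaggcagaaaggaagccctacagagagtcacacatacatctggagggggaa
The Cyp2c65 and Cyp2c66 windows were identical at 85.3% of their 300 bases in the best alignment, and those of Cyp3a11 and Cyp3a44 at 75.7%. In both Cyp2c windows the TATAAA in capitals lay upstream of the usual place of a TATA box, starting at -162 in Cyp2c65 and at -150 in Cyp2c66. The AGGTCA of Cyp3a11 began at -162 and that of Cyp3a44 at -150.

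WT replicate 2 stood apart in its signal of liver genes, and many P450 genes are also expressed by the liver. Of 19 liver markers on the array, 14 were well above background on WT replicate 2, 6 on WT replicate 1 and 5 on each IKKb(EE)IEC array. Their summed level, in multiples of the 75th percentile, was 13.4 and 50.3 in WT against 6.86 and 6.35 in IKKb(EE)IEC. Albumin (Alb) had normalized log2 levels of -2.01 and 1.68 in WT against -3.73 and -3.90 in IKKb(EE)IEC. It was well above background on WT replicate 2 alone. The WT arrays differed in gut markers too. The summed level of proximal small intestine markers was 5515 and 3315 in WT, and that of distal ones 397 and 455. Among the distal markers Fabp6 was at 1.04 and 3.99 and Slc10a2 at 0.50 and 2.41 in WT. Slc51a alone was lower on WT replicate 2, at 8.36 and 8.29. How far these differences bear on the P450 genes was not tested.

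P450 transcripts were lower in IKKb(EE)IEC enterocytes. Of the 41 genes measured, 20 fell (limma, adjusted p below 0.05), 0 rose and 21 did not pass. At an unadjusted p under 0.05 the counts were 30 lower and 0 higher. The share that fell was 48.8%, beside 7.20% of all genes measured, and 8.02% of all genes rose. A fall of at least 2-fold that passed was seen for 15 P450 genes, beside 3.56% of all genes. The median fold change was -0.86 for the P450 genes and -0.12 for all genes, and 40 of the 41 lay below 0, beside 58.0% of all genes. Both IKKb(EE)IEC arrays lay below both WT arrays for 38 P450 genes and above them for 1, with overlap for 2, while 40.8% and 28.3% of all genes were separated downward and upward. Cyp2a4 and Cyp2j11, counted among the 20, were well above background in WT only, so they entered through the genotype where they were high and had to differ. When a gene had to be well above background on all 4 arrays, 38 P450 genes were tested and 21 fell, beside 11.2% of all genes, with 18 of them among the 20. By family, 12 of 23 measured CYP2 genes fell, 4 of 6 in CYP3, 3 of 7 in CYP4 and the single CYP19 gene. In bulk RNA, fewer cells of a type and less RNA per cell cannot be told apart.

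**Figure D1:**
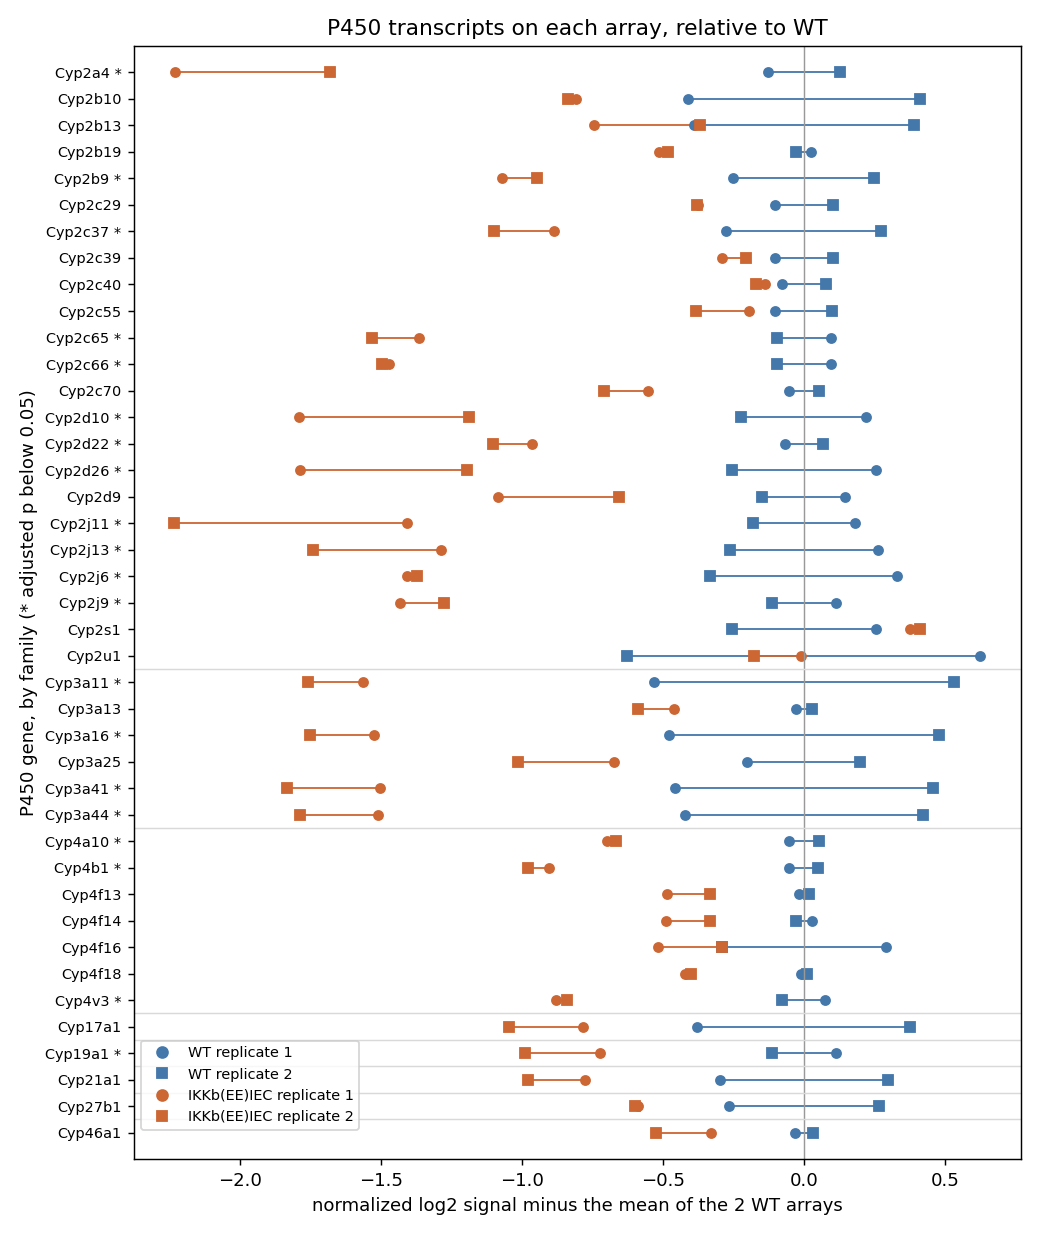
Normalized log2 signal of each measured P450 gene on each array, as the distance from the mean of the 2 WT arrays (x axis, log2 units), with 1 row per gene (y axis) and grey lines between families. Circles are replicate 1 and squares replicate 2, WT in blue and IKKb(EE)IEC in orange, and a line joins the 2 arrays of a genotype. Asterisks mark the 20 genes with an adjusted p below 0.05, whose orange points all lie left of the blue ones. Such a separation was seen for 40.8% of all genes.

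The shift by the 75th percentile matters here, since that percentile was 60.3 and 66.1 in WT against 94.6 and 107.8 in IKKb(EE)IEC, a difference of 0.68 on the log2 scale. Without any shift, both IKKb(EE)IEC arrays still had the lower processed signal for 17 of the 41 P450 genes, all of them among the 20 that fell, beside 4.93% of all genes. A further 12 P450 genes had the higher signal, beside 66.5% of all genes, and 12 overlapped. The 17 genes were therefore dimmer before scaling too, and Cyp2s1 was brighter both before and after it.

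The Cyp2c genes, which oxidise arachidonic acid, retinoids and drugs, were split among neighbours. Cyp2c65 had processed signals of 8386 and 8065 in WT against 4780 and 4852 in IKKb(EE)IEC. Its normalized log2 levels were 7.12 and 6.93 in WT against 5.66 and 5.49 in IKKb(EE)IEC, a fall of 1.45 ± 0.18 (limma, adjusted p = 0.010). The levels of Cyp2c66 were 5.07 and 4.88 in WT against 3.50 and 3.48 in IKKb(EE)IEC, with a fold change of -1.48 ± 0.17 (limma, adjusted p = 0.0082), the smallest adjusted p among the P450 genes. In both genes the arrays of a genotype lay close together and far from those of the other genotype. Cyp2c37 was at 3.57 and 4.12 in WT and at 2.96 and 2.75 in IKKb(EE)IEC, a change of -0.99 ± 0.24 (limma, adjusted p = 0.049), and its second probe gave -0.73. With every probe as its own feature, 19 P450 probes fell, beside 5.76% of all probes.

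The other 5 measured Cyp2c genes did not pass. Cyp2c40, which hydroxylates arachidonic acid, was at 6.34 and 6.49 in WT and at 6.28 and 6.25 in IKKb(EE)IEC, a fold change of -0.15 ± 0.17 (limma, adjusted p = 0.53). Its sign turned under other scalings, to 0.08 with quantile normalization, 0.15 with a repaired background correction and 0.11 in the authors' value table. The fold changes of Cyp2c29, Cyp2c39 and Cyp2c55 were -0.38 ± 0.17, -0.25 ± 0.17 and -0.29 ± 0.18. Cyp2c70, which makes the muricholic acids of mouse bile, gave -0.63 ± 0.17 (limma, adjusted p = 0.061). Cyp2c38, Cyp2c54 and Cyp2c44 (now Cyp2c23) were not measured.

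On chromosome 19 (mm8, the build of the probe positions in the files) the Cyp2c genes lie in the order Cyp2c55, Cyp2c65, Cyp2c66, Cyp2c29, Cyp2c38, Cyp2c39, Cyp2c40, Cyp2c37, Cyp2c54 and Cyp2c70. The probes of Cyp2c65 (chr19:39158844-39158903) and Cyp2c66 (chr19:39240004-39240063) are adjacent in this order. Their neighbours on either side, Cyp2c55 (chr19:39107228-39107287) and Cyp2c29 (chr19:39382463-39382522), did not pass. Whether a probe lies in an exon or a UTR was not analysed here. The difference in fold change between neighbouring genes was not tested.

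**Figure D2:**
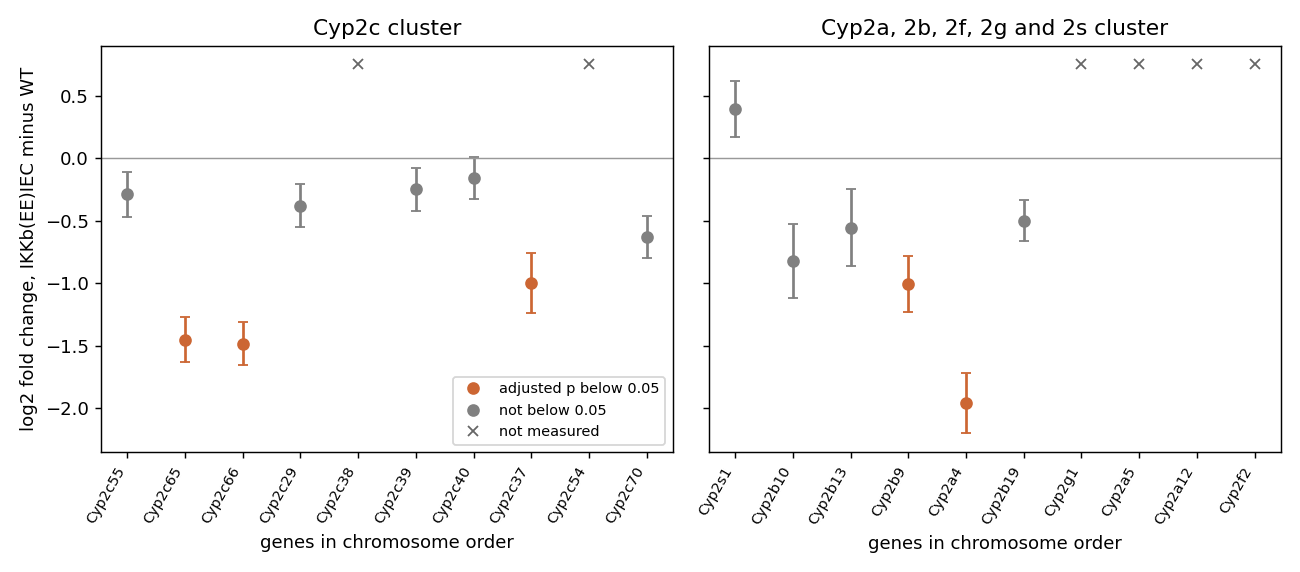
Fold change of each gene (y axis, log2, IKKb(EE)IEC minus WT, bars ± 1 standard error of the limma fit) in chromosome order (x axis, order only, not to scale) for the Cyp2c genes on chromosome 19 (left) and the Cyp2a, Cyp2b, Cyp2f, Cyp2g and Cyp2s genes on chromosome 7 (right). Orange genes had an adjusted p below 0.05, grey genes did not, and crosses mark genes not measured. The neighbours Cyp2c65 and Cyp2c66 lie at -1.45 and -1.48, between genes at -0.29 and -0.38.

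In the Cyp3a subfamily, the main drug-oxidising P450s of gut and liver and targets of the nuclear receptor Nr1i2 (PXR), 4 of 6 measured genes fell. Cyp3a11, the most studied mouse member, was at 3.01 and 4.08 in WT and at 1.98 and 1.78 in IKKb(EE)IEC, a change of -1.66 ± 0.36 (limma, adjusted p = 0.041). Cyp3a16, known from fetal liver, was at 2.96 and 3.92 in WT and at 1.92 and 1.69 in IKKb(EE)IEC, a change of -1.64 ± 0.34 (limma, adjusted p = 0.037). The probe listed as Cyp3a41, now named Cyp3a41a, was at 6.10 and 7.02 in WT and at 5.05 and 4.72 in IKKb(EE)IEC, a change of -1.67 ± 0.34 (limma, adjusted p = 0.035). The brighter probe of Cyp3a44 followed the same course, at 2.997 and 3.84 in WT and at 1.91 and 1.63 in IKKb(EE)IEC, a change of -1.65 ± 0.31 (limma, adjusted p = 0.031). All 4 genes were lower on both IKKb(EE)IEC arrays, without overlap, as were 40.8% of all genes. The 4 genes were also higher on WT replicate 2 than on WT replicate 1.

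The fold changes of these 4 genes were nearly the same. They are close paralogs, lying side by side on chromosome 5 (mm8) in the order Cyp3a16, Cyp3a41, Cyp3a44, Cyp3a11 and Cyp3a25. Their promoter windows were alike too, with 94.7% of bases identical between Cyp3a16 and Cyp3a44, 93.7% between Cyp3a41a and Cyp3a44 and 93.3% between Cyp3a16 and Cyp3a41a. Whether each probe reads 1 gene alone was not tested, so the 4 falls cannot be counted as independent. The other probe of Cyp3a44 was at 0.77 and 1.07 in WT and at -2.36 and -3.73 in IKKb(EE)IEC, where neither array was well above background. It was at least 7.12-fold lower (limma over probes, adjusted p = 0.0077), but passed the filter through WT alone. Here and below, at least N-fold sets the WT mean against the mean, over the IKKb(EE)IEC arrays, of whichever is higher, the probe's level or the lowest level among probes well above background on that array. The 2 probes of Cyp3a44, at chr5:146078375-146078434 and chr5:146078612-146078671 (mm8), lie close together.

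Cyp3a13, a member well known in the intestine, did not pass, at 6.44 and 6.49 in WT and at 6.01 and 5.88 in IKKb(EE)IEC (-0.52 ± 0.17, limma, adjusted p = 0.085). Cyp3a25 gave -0.84 ± 0.23 (limma, adjusted p = 0.060), and its second probe also gave -0.84.

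The Cyp3a falls were also read without each WT array. WT replicate 1 was above both IKKb(EE)IEC arrays in the summed liver level too, so leaving out WT replicate 2 need not remove all of the liver signal. Among the larger terms of that sum was Ambp, at 2.00 and 2.59 in WT against 0.42 and 0.67 in IKKb(EE)IEC. Another was the urinary protein gene Mup1, at 0.96 and 4.32 in WT against -2.09 and -2.11 in IKKb(EE)IEC. Alb, Ahsg, Fgb, Fgg, Apoh, Hp and Uox were not well above background on WT replicate 1. Without WT replicate 2 the fold change of Cyp3a11 was -1.13, that of Cyp3a16 -1.16, that of Cyp3a41a -1.21 and that of Cyp3a44 -1.23. Without WT replicate 1 they were -2.19, -2.12, -2.13 and -2.07, and in both cases all 4 passed. These are fits with a single WT array, so the spread comes from the IKKb(EE)IEC pair and the prior of the fit. The part of the liver genes' signal in the Cyp3a falls was not tested.

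**Figure D3:**
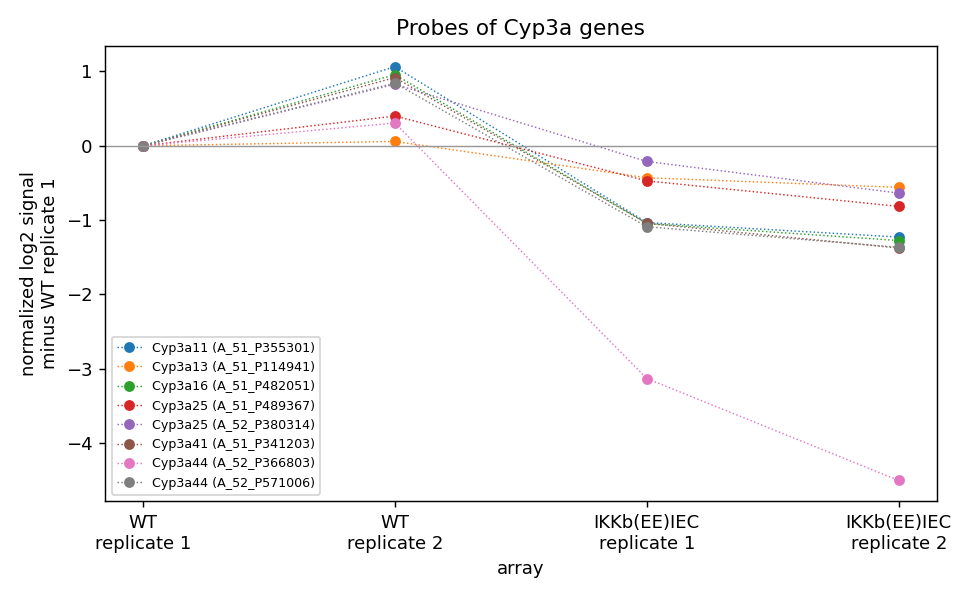
Normalized log2 signal of the 8 Cyp3a probes on the 4 arrays (x axis), as the distance from WT replicate 1 (y axis, log2 units), with dotted lines joining the values of 1 probe. The probes of Cyp3a11, Cyp3a16, Cyp3a41 and the brighter probe of Cyp3a44 run together, high on WT replicate 2 and low on both IKKb(EE)IEC arrays, while the second Cyp3a44 probe, not well above background on either of them, drops further.

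The 3 Cyp2j genes measured in both genotypes fell, as did Cyp2j11, which was measured in WT alone. Some Cyp2j enzymes turn arachidonic acid into epoxides, and Cyp2j6 is known from the small intestine. Cyp2j6 was at 2.52 and 1.86 in WT and at 0.78 and 0.81 in IKKb(EE)IEC, a change of -1.39 ± 0.26 (limma, adjusted p = 0.029). Cyp2j9 was at 0.25 and 0.02 in WT and at -1.30 and -1.14 in IKKb(EE)IEC, a change of -1.36 ± 0.18 (limma, adjusted p = 0.013). For Cyp2j13 the levels were 1.25 and 0.73 in WT against -0.30 and -0.75 in IKKb(EE)IEC (-1.51 ± 0.26, limma, adjusted p = 0.026). WT replicate 1 was the higher WT array for each, the opposite of Cyp3a. Cyp2j11 was at -0.59 and -0.95 in WT and at -2.18 and -3.003 in IKKb(EE)IEC, where neither array was well above background. It was at least 2.20-fold lower (limma, adjusted p = 0.025), but passed the filter through WT alone. The genes lie in a row on chromosome 4 with Cyp2j5, which was not measured.

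Of the Cyp2d genes, relatives of the human drug-metabolising CYP2D enzymes, 3 of 4 measured members fell. Cyp2d26 had processed signals of 10711 and 8243 in WT against 4076 and 7001 in IKKb(EE)IEC. In normalized log2 levels this was 7.47 and 6.96 against 5.43 and 6.02, a change of -1.49 ± 0.29 (limma, adjusted p = 0.032). Cyp2d10 followed the same pattern, at 4.90 and 4.46 in WT and at 2.89 and 3.49 in IKKb(EE)IEC (-1.49 ± 0.28, limma, adjusted p = 0.030). For both, IKKb(EE)IEC replicate 1 was the lower array. Cyp2d22 was at 1.04 and 1.17 in WT and at 0.14 and 0.0042 in IKKb(EE)IEC (-1.03 ± 0.17, limma, adjusted p = 0.023). Cyp2d9, a testosterone hydroxylase of male mouse liver, did not pass at -0.87 ± 0.22 (limma, adjusted p = 0.056), and its other probe gave -1.09. Cyp2d13 was not measured.

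The Cyp2a and Cyp2b genes lie together on chromosome 7 and include targets of the nuclear receptor Nr1i3 (CAR). Cyp2a4, a steroid hydroxylase, was at -0.37 and -0.12 in WT and at -2.48 and -1.93 in IKKb(EE)IEC, where it was not well above background. It was at least 3.101-fold lower (limma, adjusted p = 0.011), but passed the filter through WT alone. Cyp2a5 and Cyp2a12 were not measured. Cyp2b9 was at 4.36 and 4.86 in WT and at 3.54 and 3.66 in IKKb(EE)IEC (-1.01 ± 0.22, limma, adjusted p = 0.042). Cyp2b10, Cyp2b13 and Cyp2b19 did not pass, with fold changes of -0.82 ± 0.30, -0.56 ± 0.31 and -0.50 ± 0.16. Cyp2b9 and Cyp2b13 had promoter windows identical at 99.3% of bases, and whether their probes read 1 gene alone was not tested either.

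Cyp2s1, an epithelial P450 that the dioxin receptor Ahr is known to induce, was the only measured member above 0. Its levels were 4.14 and 3.63 in WT against 4.26 and 4.29 in IKKb(EE)IEC, a fold change of 0.39 ± 0.22 (limma, adjusted p = 0.24). Both IKKb(EE)IEC arrays lay above both WT arrays, as for 28.3% of all genes, but the difference did not pass. It was 0.65 without WT replicate 1, where it passed (limma, adjusted p = 0.012), and 0.14 without WT replicate 2. Cyp2u1, a hydroxylase of long-chain fatty acids, was at -0.02 and -1.27 in WT and at -0.66 and -0.82 in IKKb(EE)IEC, and a single WT array was well above background. Its fold change of -0.09 ± 0.41 (limma, adjusted p = 0.88) was 0.53 without WT replicate 1 and -0.72 without WT replicate 2, so the WT arrays decided its direction.

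In the CYP4 family, which hydroxylates the end carbon of fatty acids and eicosanoids, 3 of 7 measured genes fell. Cyp4b1 was at 3.31 and 3.42 in WT and at 2.46 and 2.39 in IKKb(EE)IEC, a change of -0.94 ± 0.17 (limma, adjusted p = 0.026). For Cyp4v3, a broadly expressed fatty acid hydroxylase, the levels were 4.58 and 4.43 in WT against 3.63 and 3.67 in IKKb(EE)IEC (-0.86 ± 0.17, limma, adjusted p = 0.034). Cyp4a10, a classical target of the fatty acid receptor Ppara, was at 0.97 and 1.08 in WT and at 0.33 and 0.36 in IKKb(EE)IEC (-0.68 ± 0.16, limma, adjusted p = 0.049). All 3 were lower on both IKKb(EE)IEC arrays, without overlap, as were 40.8% of all genes. The 4 measured Cyp4f genes, among them the leukotriene-inactivating Cyp4f14 and Cyp4f18, did not pass, with fold changes of -0.41 for Cyp4f13, Cyp4f14 and Cyp4f18 and -0.40 for Cyp4f16. Cyp4a12, Cyp4a14, Cyp4f15 and Cyp4x1 were not measured.

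Few P450 genes of steroid, sterol and vitamin metabolism were measured. Cyp17a1, an enzyme of androgen synthesis, had processed signals of 38076 and 70551 in WT against 45119 and 42837 in IKKb(EE)IEC. Its fold change was -0.92 ± 0.29 (limma, adjusted p = 0.084), with WT replicate 2 the highest array. Cyp19a1, the aromatase of oestrogen synthesis, was at -0.18 and -0.40 in WT and at -1.01 and -1.28 in IKKb(EE)IEC (-0.85 ± 0.19, limma, adjusted p = 0.043). Cyp21a1, a steroid hydroxylase best known from the adrenal, was at 3.02 and 3.61 in WT and at 2.54 and 2.34 in IKKb(EE)IEC (-0.88 ± 0.25, limma, adjusted p = 0.067). Cyp27b1, which makes active vitamin D, was at 0.64 and 1.17 in WT and at 0.32 and 0.31 in IKKb(EE)IEC (-0.59 ± 0.23, limma, adjusted p = 0.12). Cyp46a1, a cholesterol hydroxylase of the brain, was at 0.48 and 0.55 in WT and at 0.19 and -0.01 in IKKb(EE)IEC (-0.43 ± 0.17, limma, adjusted p = 0.13). Of these 5 genes 1 fell and 4 did not pass.

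The 28 genes that were not measured included the bile acid enzymes Cyp7a1, Cyp7b1, Cyp8b1, Cyp27a1 and Cyp39a1, the vitamin D and retinoic acid degrading Cyp24a1, Cyp26a1 and Cyp26b1, and the liver enzymes Cyp1a2, Cyp2e1 and Cyp2f2. The rest not yet named were Cyp2g1, Cyp2r1, Cyp2w1, Cyp11a1, Cyp11b2 and Cyp20a1. Of the 8 probes well above background on 1 array, 6 were so on WT replicate 2 and 2 on WT replicate 1. Those on WT replicate 2 included Cyp2e1, with signals of 4.95, 44.8, 5.36 and 5.46, and Cyp4a14, a liver target of Ppara, with 25.2, 132, 13.1 and 13.0. Both signals, like that of Alb, were highest on WT replicate 2. The part of the liver genes' signal in the P450 differences was not tested.

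Leaving out 1 array changed the counts in opposite ways. Without WT replicate 1, 31 P450 genes were lower and 2 higher (28.5% of all genes lower), and without WT replicate 2, 27 were lower and 0 higher (18.2%). The 20 genes that fell with all 4 arrays were among those called lower in both cases. With IKKb(EE)IEC replicate 1 or replicate 2 left out, 1 P450 gene was called, Cyp2j11 and Cyp2a4 respectively (0.659% and 0.836% of all genes lower), while 40 of 41 fold changes lay below 0 in each. Cyp2j11 and Cyp2a4 both passed the filter through WT alone, the genotype where they were high. The WT arrays varied more than the IKKb(EE)IEC arrays, differing by over 0.5 for 16 of the 41 genes, against 4.

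Other ways of scaling kept the direction of every called P450 gene but not every call. Genes lower numbered 18 with a shift by the array median, 17 with quantile normalization, 15 with a repaired normexp background correction and 15 in the authors' value table, against 5.91%, 5.75%, 4.47% and 5.84% of all genes. The median of the P450 genes was -0.80, -0.81, -0.51 and -0.40, and that of all genes -0.07, -0.06, -0.01 and -0.02. The share of rises among all calls was 52.7% under the 75th percentile shift, 63.2% with the median shift and 71.7% with the repaired correction. Called under all of these were 11 genes, Cyp2a4, Cyp2c65, Cyp2c66, Cyp2d10, Cyp2d22, Cyp2j6, Cyp2j13, Cyp3a16, Cyp3a41a, Cyp3a44 and Cyp4b1. Among them Cyp2a4 passed the filter through WT alone. The call of Cyp4a10 was lost under all 4, that of Cyp19a1 and Cyp2c37 under 3, and that of Cyp2b9, Cyp2d26, Cyp2j9, Cyp2j11, Cyp3a11 and Cyp4v3 under 1. Sizes depended on the background for dim probes: Cyp2a4 was -1.96 but -0.54 in the authors' table, Cyp2j11 -1.82 but -0.39, and Cyp2j9 -1.36 but -0.37. Among bright probes Cyp2c66 moved less, with -1.48 and -1.21, but Cyp17a1 went from -0.92 to -0.54 and Cyp4f14 from -0.41 to -0.06.

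**Figure D4:**
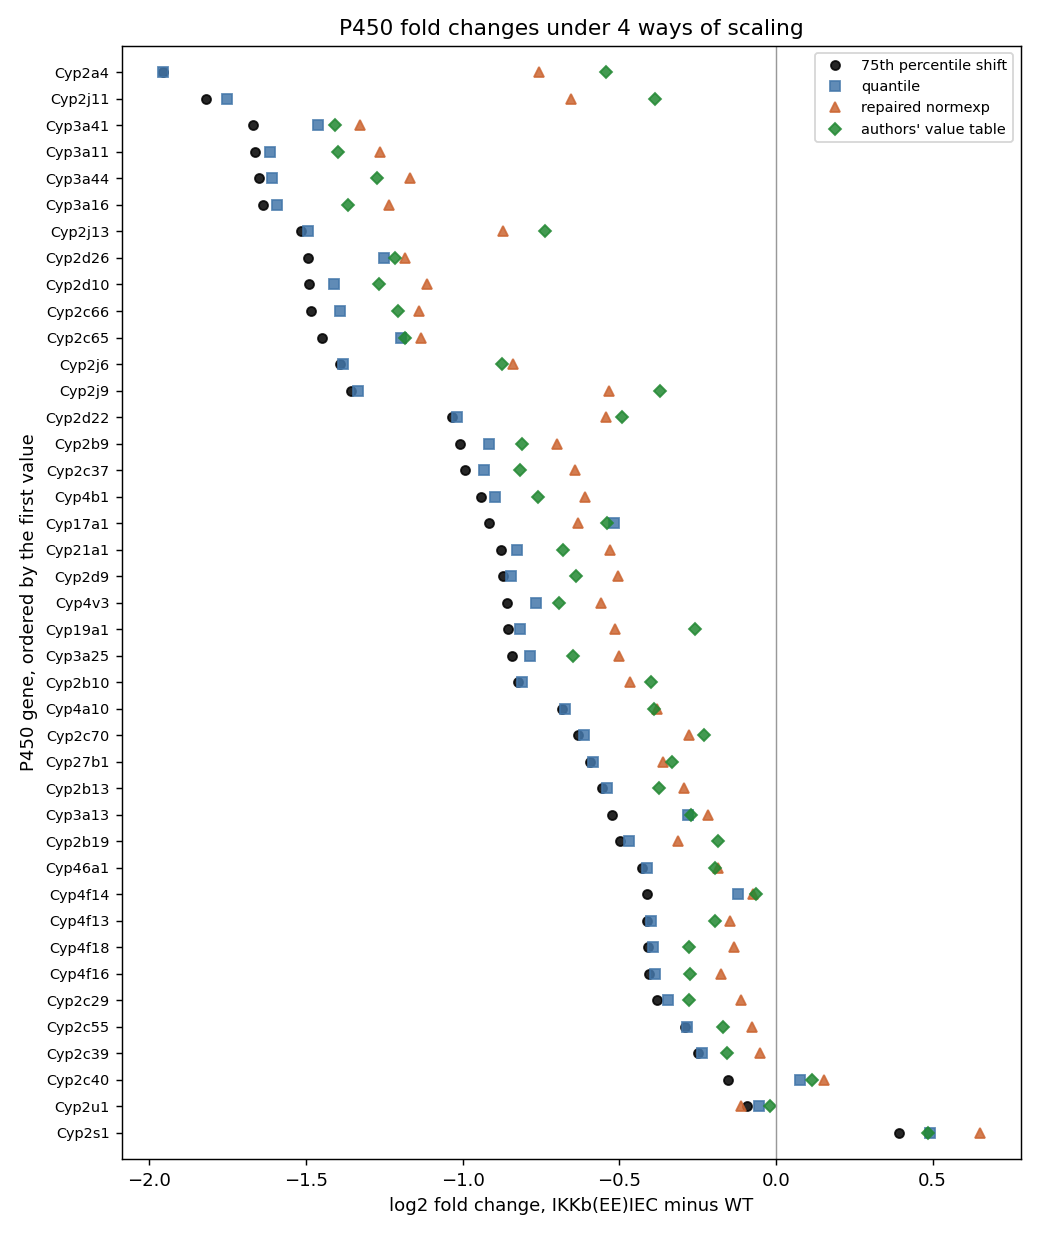
Fold change of each measured P450 gene (x axis, log2, IKKb(EE)IEC minus WT) under the 75th percentile shift, quantile normalization, the repaired normexp background correction and the authors' value table (marker shape and colour), with genes ordered by the first (y axis). The 20 genes that fell stay left of 0 under each, and Cyp2c40 crosses 0.

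P450s depend on other proteins for electrons and haem. Of 24 genes for electron donors and haem enzymes on the array, 23 were measured. Of these 1 rose and 0 fell, beside 8.02% and 7.20% of all genes. The median fold change was -0.11, against -0.12 for all genes. Alas1, the first enzyme of haem synthesis, was at 4.01 and 4.07 in WT and at 5.57 and 5.44 in IKKb(EE)IEC, a rise of 1.46 ± 0.17 (limma, adjusted p = 0.0079). It thus moved opposite to the P450 genes that fell. The reductase Por was at 5.40 and 5.08 in WT and at 5.14 and 5.13 in IKKb(EE)IEC (-0.10 ± 0.19, limma, adjusted p = 0.71), and Cyb5a, a cytochrome b5, gave 0.11 ± 0.20.

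Among 38 receptors and other regulators known to control P450 genes, 29 were measured, 2 rose, 1 fell and the median fold change was 0.13. Over all genes 15.2% were called in either direction, so this count lies near the background. Ahr was at -1.01 and -2.33 in WT and at 1.18 and 0.60 in IKKb(EE)IEC, a rise of 2.56 ± 0.47 (limma, adjusted p = 0.028), with a single WT array well above background. Hnf4g, an intestinal nuclear receptor, was at 3.96 and 4.28 in WT and at 3.20 and 3.097 in IKKb(EE)IEC, a fall of 0.97 ± 0.19 (limma, adjusted p = 0.034). The receptors best known for Cyp3a and Cyp2b did not pass, Nr1i2 with 0.20 ± 0.20 and Nr1i3 with -0.70 ± 0.23 (limma, adjusted p = 0.089). Vdr and Hnf4a did not pass either, at 1.09 ± 0.28 and 0.70 ± 0.19.

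Cell markers moved as well. All 12 absorptive enterocyte markers were well above background on every array. Of these 3 fell and 1 rose, with a median of -0.01, beside 7.20% and 8.02% of all genes, and 8 did not pass. Their summed level was 13663 and 14477 in WT against 7041 and 7046 in IKKb(EE)IEC. Most of that sum came from Fabp1 and Fabp2, which fell with fold changes of -1.35 and -1.56, so it mainly follows these genes. Lct fell too, while Anpep rose by 1.10. None of 7 general epithelial markers passed (median 0.45). The summed level of 10 proximal small intestine markers was 5515 and 3315 in WT against 1803 and 1655 in IKKb(EE)IEC. Most of that sum came from Fabp1, which with Lct is in the enterocyte list too. Of 8 measured, 3 fell and 1, Onecut2, rose by 3.05. For Onecut2 a single WT array was well above background, and its rise was 1.51 in the authors' value table. The summed level of 8 distal small intestine markers was 397 and 455 in WT against 272 and 285 in IKKb(EE)IEC. Of 8 measured, 2 fell and 0 rose. All 6 Paneth cell markers fell. Of 9 measured macrophage markers 4 rose and 1 fell, and the 4 that rose were well above background in IKKb(EE)IEC only, so they entered through the genotype where they were high. The summed level of 7 pancreas acinar markers was 468 and 202 in WT against 28.1 and 31.3 in IKKb(EE)IEC. Most of that sum came from Clps, at 8.78 and 7.52 in WT against 3.94 and 4.33 in IKKb(EE)IEC. Of 4 measured, 2 fell, Clps and Pnliprp2, while Cela1 and Ctrb1 did not pass. Pnlip, Cpa1 and Cela2a were not measured. Of 7 measured liver markers 3 fell and 0 rose, and 1 of those that fell, Mup1, passed the filter through WT alone. Of 6 goblet cell markers 1 fell and 0 rose, and of 4 measured stroma markers 1 fell and 0 rose. None of 5 measured B and T cell markers passed. The part of these shifts in the P450 falls was not tested.

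Promoter windows were available for 18 of the 20 genes that fell and 18 of the 21 that did not pass, and were searched on both strands. TATAAA was found in 10 of the 18 that fell and 6 of the 18 others, beside 13.6% of all 32544 promoters. AGGTCA was found in 5 and 6 (16.2% of all promoters). GCGTG, the core of the site bound by Ahr, was found in 3 and 4 (32.6%), and the NF-kB consensus in 3 and 1 (8.49%). The 3 genes that fell with an NF-kB match were Cyp19a1, Cyp2a4 and Cyp2j6. TATAAA began upstream of the usual place in Cyp2c65 (-162), Cyp2c66 (-150), Cyp3a11 (-234), Cyp3a16 (-126), Cyp3a41a (-122) and Cyp3a44 (-122). It began at -28 in Cyp2a4, at -31 in Cyp2d10 and Cyp2d26, and at -157, -143, -31 and -29 in Cyp19a1. Several of these windows are near-copies of each other, so their matches are not independent. A match describes the letters of this window only.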

How the data were processed

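Total RNA of 2 WT and 2 IKKb(EE)IEC enterocyte samples was measured on Agilent arrays of design 014868. The deposited processed signals are spot intensities from Agilent Feature Extraction 9.5.3.1, background-subtracted by that software per the file headers, with no normalization between arrays recorded there. The authors' value table is also deposited, as linear intensities with column medians of 111.5 to 112.0. It ranked probes as the spots' median intensity did (Spearman 0.999 to 1.00), so its direction is that of signal, and the sources used here do not name its normalization. Arrays give no counts, so their number limits the precision. The p-values set the difference between genotypes against a spread estimated from these samples and, through the prior of the fit, from all genes.

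From the log2 processed signal of an array, the 75th percentile of its non-control spots was subtracted. Probes well above background on at least 2 arrays entered, 16394 in all, and the probe with the highest mean stood for a gene, which gave 12437 genes. P450 genes with over 1 such probe numbered 6. The test was limma (version 3.58.1, R 4.3.3; functions lmFit and eBayes), two-sided, at a Benjamini-Hochberg adjusted p of 0.05. The script was tested on simulated data. Current names came from a RefSeq gene table of GRCm38.p6, and 89 of the 100 P450 probes matched by accession. A further 7 probes listed under other names now belong to P450 genes and are not included. Promoters of 52 P450 genes were found in the RefSeq table of the same build. Probe sequences were not used here.

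The P450 genes and the lists of donors, receptors and cell markers were chosen with earlier results of these data known. Every measured P450 gene was named, every called one with its levels, and from the lists every called gene among donors and receptors but 1, which is not reported here. Por, Cyb5a, Nr1i2, Nr1i3, Vdr and Hnf4a were named after their values were seen, as were all cell markers given by name. Alternatives covered background correction, scaling, filters, the probe of a gene, the authors' table, each array left out and a replicate block.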

Additional observations from a re-analysis of the deposited data

How the results depend on the processing

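All 20 P450 calls kept their sign under the 4 other scalings given above. Of 530 values of single P450 genes under alternatives, 410 kept their direction and side of the threshold, 92 were no longer called, 23 were newly called and 5 changed sign. The sign changes were Cyp2c40 with the repaired normexp correction (0.15), quantile normalization (0.078) and the authors' value table (0.11), and Cyp2u1 with the planned normexp correction (0.053) and without WT replicate 1 (0.53, against -0.72 without WT replicate 2). The planned normexp correction called 0 genes of any kind (P450 genes, P450 probes, all genes higher or lower, donors and receptors). Spots whose local background exceeded their mean signal numbered 8, and a repaired version, which puts the array's median background in their place, was added after seeing the data. It called 15 P450 genes, 556 of all genes lower and 7 receptors. With no filter on dim probes, 5 P450 genes, 342 of all genes lower and 501 higher, and 0 receptors were called. The filter on all arrays called 21 of 38 P450 genes (11.2% of all genes lower), 2 donor genes and 7 receptors. Receptors called were 3 in the main fit, 7 with the median shift and 6 with every probe as its own feature. Donors called were 1 in the main fit, 3 in the authors' table, 2 with a gene's probes averaged and 2 with every probe as its own feature. A threshold of at least 2-fold left 443 of all genes lower. Of the 47 P450 probes, 19 were called when every probe was its own feature.

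With each array left out in turn, the P450 genes called lower ranged from 1 to 31 and those higher from 0 to 2, P450 probes from 2 to 35, all genes lower from 82 to 3542 and higher from 165 to 2633, donors from 0 to 7 and receptors from 0 to 13. The lone array is then assumed to vary like the other genotype's. With the replicate number as a block, 18 P450 genes and 587 of all genes were lower, and Cyp2c37 (adjusted p = 0.062) and Cyp4a10 (0.065) lost their call. Deviations of same-numbered samples correlated at 0.11 over 2 pairs, so the numbers are not taken to pair the samples. Dim probes, such as those of Cyp2a4 and Cyp2j11, are limited by the background, and their sizes depend on its correction.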
